A study of Rattus norvegicus with 34 samples.

Results

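Livers of Brown Norway rats aged 24 months were compared between 3 males given toluene and 3 control males, 6 of the 34 arrays of a series on liver gene expression in ageing male rats. The dosed rats, titled high dose, received 1.0 g/kg toluene by gavage in corn oil and were killed 4 h later, while the treatment field of the controls reads that they had no treatment. Whether the controls received corn oil or gavage is not given in the labels used here, so toluene, vehicle and handling cannot be told apart in this comparison. All animals were housed singly on a 12-h light-dark cycle, and the labels give no clock time of killing. Each array carries RNA from one rat and was an Affymetrix whole-genome rat GeneChip. The 12 other Brown Norway arrays, control and dosed males of 4 and 12 months with 3 rats in each group, served to estimate the spread and to test whether the response differed with age. Arrays were assigned by their titles.

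Toluene is a small aromatic solvent that the liver clears by oxidation of its methyl group. Cytochrome P450 enzymes, Cyp2e1 foremost, make benzyl alcohol, alcohol and aldehyde dehydrogenases carry it on to benzoic acid, and the acid is joined to glycine and excreted as hippuric acid. Many foreign compounds also act on nuclear receptors of the liver cell, CAR and PXR, whose target genes encode P450s, conjugating enzymes and transporters, and genes of the Cyp2b subfamily are the classical readout of CAR.

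The values are linear probe-set signals in arbitrary units. A signal under 32 was set to 32, called the floor here, before log2 was taken, because low signals spread widely. A probe set was tested if it exceeded the floor on at least 3 of the 18 Brown Norway arrays, which left 13972. Differences are log2 toluene minus control with the standard error of limma's fit, and a call is a Benjamini-Hochberg adjusted p under 0.05 over all 13972 probe sets. Where arrays of a group lie at the floor, the fold against it gives only a minimum, marked by the words at least. A group with all arrays at the floor adds no spread to the fit. The SE and p-value then leave out how its signals vary. The 6 arrays had median signals of 36.2 to 37.6, and 52.97% to 54.1% of probe sets exceeded the floor. The ratio of 3' to 5' GAPDH signal, a measure of RNA integrity, was 0.818 to 0.944 in controls and 0.835 to 0.906 after toluene. The groups differed in how alike their rats were: correlations between arrays were 0.950 to 0.966 among controls and 0.983 to 0.985 among dosed rats, and the median within-group SD of log2 signal was 0.210 against 0.139. Control 1 exceeded all 5 other arrays by over 2-fold at 115 probe sets, control 2 at 133 and control 3 at 38, whereas the dosed arrays did so at 2, 4 and 5. For the lists in which one of these controls stood apart, values without it are given below. Hepatocyte markers were abundant on every array: the summed signal of 12 hepatocyte markers, albumin and apolipoproteins among them, was 65566 to 66193 in controls and 61206 to 64010 after toluene.

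Of 13972 probe sets, 6 passed, 5 of them higher and 1 lower after toluene, which is 0.0429% of those tested. They were Scd, probe set 1371076_at, Phf19, Cers6 and Cep152, which rose, and N4bp2l1, which fell. At an unadjusted p under 0.05 the same fit held 1441 probe sets, 10.3%, with 736 higher and 705 lower. When limma was fitted to the 6 arrays of 24 months alone, 0 probe sets passed, 1524 held an unadjusted p under 0.05, and the adjusted p-values of the called probe sets were then 0.274 and above. None of the calls thus held without the 12 younger rats in the fit, and why was not tested. The calls also changed when single arrays were left out. Without control 2 there were 49 calls, 14 higher and 35 lower, and without control 3 there were 19, 9 higher and 10 lower, both including all 6. Without control 1, toluene 1 or toluene 3 there were 3, 2 and 4, all among the 6, and without toluene 2 there were 7, of which 4 were among the 6. Scd and 1371076_at passed without each array of 24 months in turn. Because genes were picked by p-values on these same arrays, lack of overlap between their groups, given below, adds no separate support.

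Scd encodes stearoyl-CoA desaturase, the endoplasmic reticulum enzyme that introduces the double bond of oleate and palmitoleate and so supplies unsaturated fatty acids for triglyceride and membrane lipid. Its signal was 26.6, 30.2 and 20.2 in the 3 controls and 425, 286 and 905 in the 3 dosed rats. All controls lay under the floor and every dosed rat lay far above it. The log2 difference was 3.90 (SE 0.34), at least 14.97-fold, with an adjusted p of 0.000101 in limma's fit. Among the younger rats the probe set also lay at or near the floor. Dosed rats of 4 months read 5.48 to 25.0 and those of 12 months read 17.7 to 75.9, the highest being array 3 of the latter. The response at 24 months exceeded that at 4 months by 3.96 (SE 0.48, adjusted p 0.00791 in limma's interaction test) and that at 12 months by 3.56 (SE 0.48, adjusted p 0.03). Neither difference passed with the floor at 8. Only 1 of the 13972 probe sets, 0.00716%, passed the first of these differences, and 2, 0.0143%, passed the second. With 668 and 1476 probe sets at an unadjusted p under 0.05, the remainder of both differences did not survive adjustment.

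**Figure D1:**
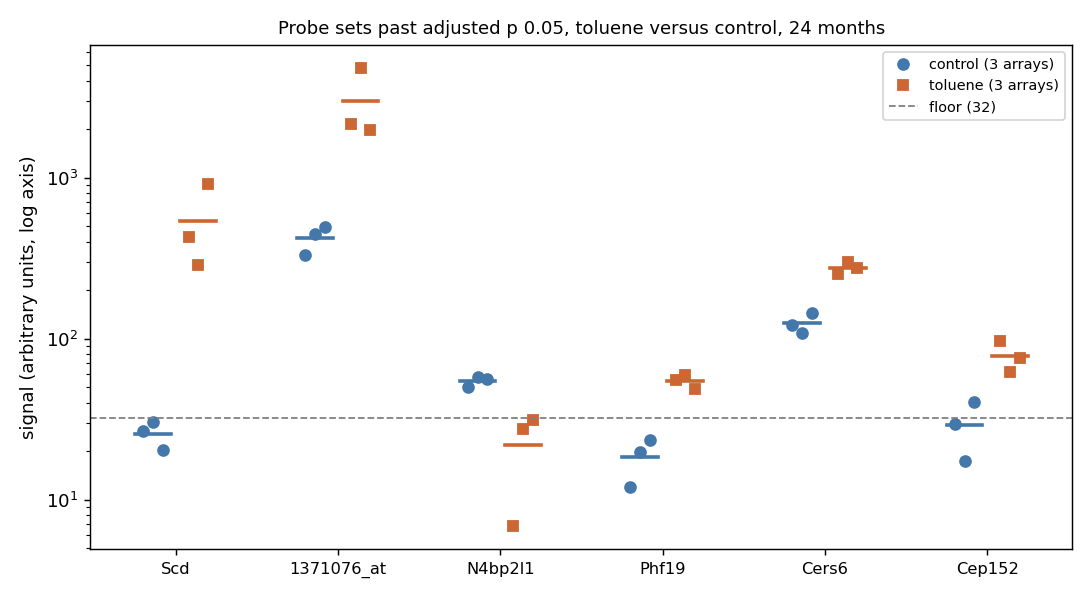
Signal of the 6 called probe sets on each of the 6 arrays of 24 months (log axis, arbitrary units), with circles for controls, squares for toluene, short lines for group means and a dashed line for the floor of 32. The groups do not overlap in any of them, and all Scd and Phf19 controls and all N4bp2l1 dosed arrays lie under the floor. The probe sets were picked on these same arrays, so this separation is no separate support.

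Probe set 1371076_at is assigned in the platform annotation to both Cyp2b1 and Cyp2b2, so neither gene can be named as its source. It was singled out after its values were seen. These neighbouring genes of chromosome 1 encode close relatives among the P450s, known for strong induction by phenobarbital through CAR. How alike the pair is shows in the stretch from 250 bases before to 50 after each transcription start, taken from RefSeq on build GRCr8, both on the plus strand, at chr1:90645869-90646168 for Cyp2b1 and chr1:90722031-90722330 for Cyp2b2. Set side by side at the offset of 17 bases that gave the most matches, 275 of 283 bases were identical, 97.2%, and the 8 bases that differ are in capitals.

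Cyp2b1: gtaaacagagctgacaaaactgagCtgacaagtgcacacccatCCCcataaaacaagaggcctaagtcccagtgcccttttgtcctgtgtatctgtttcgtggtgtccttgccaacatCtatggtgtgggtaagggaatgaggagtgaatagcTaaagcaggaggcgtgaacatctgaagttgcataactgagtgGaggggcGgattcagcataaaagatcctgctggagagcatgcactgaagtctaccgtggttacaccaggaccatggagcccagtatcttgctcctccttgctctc

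Cyp2b2: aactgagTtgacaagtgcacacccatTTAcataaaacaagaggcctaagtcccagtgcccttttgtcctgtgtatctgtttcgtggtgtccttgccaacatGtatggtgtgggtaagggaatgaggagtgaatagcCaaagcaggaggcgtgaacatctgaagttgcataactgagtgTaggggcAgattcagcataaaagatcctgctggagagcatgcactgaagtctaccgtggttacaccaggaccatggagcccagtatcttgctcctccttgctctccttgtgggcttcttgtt

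The signal of 1371076_at was 332, 444 and 491 in controls and 2160, 4820 and 1963 after toluene, or 422 ± 81.4 against 2981 ± 1596 (SD, n = 3). Every dosed rat exceeded every control, and dosed rat 2 was more than double the other two. The log2 difference was 2.71 (SE 0.31), 6.56-fold, with an adjusted p of 0.00203 in limma's fit. Younger rats given the same dose read higher and closer together, 5132 ± 247 at 4 months and 4988 ± 223 at 12 months, above controls of 1614 ± 252 and 761 ± 285 (SD, n = 3). The log2 difference was 1.68 at 4 months (adjusted p 0.153) and 2.80 at 12 months (adjusted p 0.00201). No difference between ages passed: 24 minus 4 months was 1.03 (95% interval 0.09 to 1.98, adjusted p 0.992) and 24 minus 12 months was -0.08 (-1.02 to 0.86, adjusted p 0.96). For scale, 3 probe sets, 0.0215%, were called for toluene at 4 months and 5, 0.0358%, at 12 months. Cyp2b3, the member of the subfamily with a tested probe set of its own, had signals of 3680 to 4151 in controls and 3769 to 3964 after toluene, a log2 difference of -0.00 (adjusted p 1).

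Cers6 encodes ceramide synthase 6, which makes ceramides with C16 acyl chains. It read 122, 109 and 144 in controls and 250, 297 and 274 after toluene, 125 ± 17.5 against 273 ± 23.4 (SD, n = 3). The groups did not overlap, and all values lay well above the floor. The log2 difference was 1.14 (SE 0.18), 2.20-fold, with an adjusted p of 0.0296 in limma's fit. At 4 and 12 months the differences were 0.54 (adjusted p 1) and 0.55 (adjusted p 0.943). The dosed means were alike at all ages, 260 ± 42.1 at 4 months and 277 ± 25.4 at 12 months, while the control means were 181 ± 43.8 and 189 ± 18.9 (SD, n = 3). The differences between ages did not pass, at 0.60 (95% interval 0.06 to 1.13, adjusted p 0.992) for 24 minus 4 months and 0.59 (0.05 to 1.12, adjusted p 0.448) for 24 minus 12 months.

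The other called genes lay near the floor. Phf19, a Polycomb-associated PHD finger protein, read 11.9, 19.6 and 23.5 in controls and 55.3, 59.5 and 48.5 after toluene, a log2 difference of 0.76 (SE 0.10, at least 1.70-fold, adjusted p 0.00852 in limma's fit). Beyond the dosed rats of 24 months, only control 1 of 12 months (40.6) exceeded the floor for Phf19. Phf19 was thus tested only through the group in which it was high. Its call is therefore not independent of the filter. Cep152, a scaffold of centriole duplication, read 29.5, 17.4 and 40.5 against 96.0, 61.8 and 76.1, a difference of 1.15 (SE 0.18, at least 2.22-fold, adjusted p 0.0352 in limma's fit). N4bp2l1, a protein of the N4BP2 family, read 49.8, 57.6 and 55.7 in controls and 6.84, 27.3 and 31.0 after toluene, a difference of -0.76 (SE 0.10, at least 1.70-fold lower, adjusted p 0.00752 in limma's fit). All 24-month dosed values of N4bp2l1 and all 24-month control values of Phf19 were set to the floor before the fit. Their spread is thus absent from these SEs and p-values. For N4bp2l1, controls of 4 months read 30.0 ± 5.20 and those of 12 months 25.3 ± 8.54 (SD, n = 3), both below the 24-month controls. Each of these genes was read by a single probe set. With the floor at 8 the calls of Cers6, Phf19, Cep152 and N4bp2l1 were lost (adjusted p 0.183, 0.377, 0.217 and 0.398 in limma's fit), while Scd and 1371076_at passed. Calls were also lost without single arrays: Cers6 without control 1 or any one dosed rat (adjusted p 0.0947 to 0.208 in limma's fit), Phf19 without control 1, toluene 1 or toluene 2 (0.0509 to 0.0806), Cep152 without control 1, toluene 1 or toluene 3 (0.138 to 0.271), and N4bp2l1 without toluene 1 (0.0634).

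**Figure D2:**
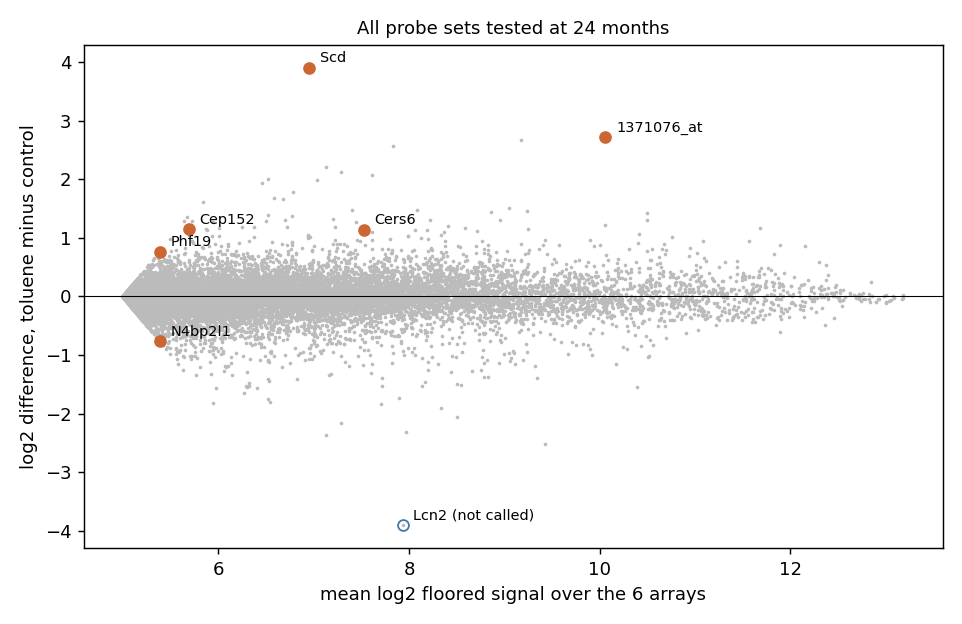
Log2 difference between toluene and control at 24 months against mean log2 floored signal for the 13972 probe sets tested, with called probe sets as filled circles. Scd at 3.90 and 1371076_at at 2.71 stand apart at the top, while Lcn2 at -3.91, the open circle, was not called (SE 1.40), and its controls read from 143 to 3627.

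Among the genes with the next smallest p-values, none of them called, Ltc4s, which makes leukotriene C4, read 54.5, 94.1 and 55.7 in controls and 371, 287 and 169 after toluene, a log2 difference of 1.99 (SE 0.35, adjusted p 0.0932 in limma's fit). Psat1, an enzyme of serine synthesis, read 86.1, 98.5 and 181 against 34.5, 27.6 and 22.6, a difference of -1.81 (SE 0.36, at least 3.52-fold lower, adjusted p 0.125 in limma's fit). Glul, glutamine synthetase of the hepatocytes around the central vein, read 1381, 727 and 907 against 404, 578 and 325 on its brightest probe set. In all of these the groups did not overlap, but the genes were picked for small p-values on these same arrays. All 3 Glul probe sets had negative differences, -0.99, -1.20 and -1.29 (adjusted p 0.125 to 0.315 in limma's fit). Lect2, a protein secreted by the liver, gave -1.37 and -1.38 on its 2 probe sets (adjusted p 0.0981 and 0.119), with 538 as the lowest control and 433 as the highest dosed rat on the first. Pex11a, which acts in peroxisome division and is a PPARalpha target, gave -1.35 and -1.02. Me1, cytosolic malic enzyme and a source of NADPH, gave -1.06 and -0.79. Under the floor lay 1 dosed rat on the Pex11a probe set at -1.35 and 2 on the Me1 probe set at -1.06. The differences on these probe sets are thus minimum sizes.

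Others in this range were Adra1b (0.69), an alpha-1 adrenergic receptor of hepatocytes, Bcl6b (0.64), Tstd1 (0.69), Rgs12 (0.41) and Tubb6 (-1.15). On the probe sets with these differences the adjusted p-values ran from 0.0981 to 0.199 in limma's fit. All 3 dosed arrays of Tubb6, 2 controls on this Bcl6b probe set and 1 control of Rgs12 lay under the floor. The differences of these genes are thus minimum sizes, and the p-values of Tubb6 leave out how its dosed signals vary. The 4 probe sets of Bcl6b lay between 0.42 and 0.64. Its brightest had an adjusted p of 0.271 in limma's fit, and the one at 0.42 had 0.464 with overlapping groups. Which of the genes near the threshold passed depended on the arrays used. Without control 2, Ltc4s (2.25, adjusted p 0.0276), both Lect2 probe sets (0.0253 and 0.0317), the Bcl6b probe set at 0.64 (0.0232), Tstd1 (0.0428) and 2 of the Glul probe sets (0.032 and 0.0466) were called, as were Vnn1, Cd5l, Ephx2, Gls2 and Gstm7, described with their lists. Without control 3, Adra1b (0.0471) and Cfp (0.0311) were called, and without toluene 2 the Lect2 probe sets (0.0135 and 0.0152). Without array 3 of the dosed rats of 12 months, left out after its values were seen, Ltc4s (0.00869), Psat1 (0.00197), the same Bcl6b probe set (0.0335), Tubb6 (0.0141) and Akr1c3 (0.0287) were called. For 2 genes the probe sets disagreed. Rad23b had -0.56 on one and -0.07 on the brighter one. Cfp, the complement factor properdin, had -0.67 on one, where 2 dosed rats lay under the floor, and -0.32 on the brighter one.

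Gene lists are described below by their members' counts, one probe set per gene, the one with the highest mean signal. Over all 8592 genes, 5.45% were higher and 5.67% lower at an unadjusted p under 0.05, and the median log2 difference was -0.0041. Among list members only Scd was called for toluene at 24 months with all arrays in the fit.

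Cyp2e1 read 7112, 6527 and 7680 in controls and 6657, 6749 and 7191 after toluene, a log2 difference of -0.05 (SE 0.09, adjusted p 0.909 in limma's fit). It was among the brightest P450 probe sets and its groups overlapped. Of the 10 genes listed for toluene oxidation 7 were tested and none of these was called, while Cyp2b1 and Cyp2b2, shared by 1371076_at, and Adh1 of the alcohol step were not tested as single genes. Of the 7, 1 was higher at an unadjusted p under 0.05 and none was lower, with a median of 0.01. The one was Cyp2c11, the male-dominant P450 of rat liver, with 2129, 4296 and 2524 against 4283, 4702 and 5131 (log2 difference 0.72, SE 0.24, adjusted p 0.35). One control, rat 2, reached the dosed range. Por, the electron donor of all these P450s, had a difference of 0.01. Of 15 genes that carry benzyl alcohol and benzoate onward, none was higher and 2 were lower, Glyatl2 (-0.65) and Acsm2 (-1.39). The main enzymes of that route gave 0.13 for Aldh2 and 0.27 for Glyat, the glycine acyltransferase that forms hippurate, with adjusted p-values of 0.814 and 0.679 in limma's fit.

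Among 23 further CAR and PXR targets 2 were higher and 1 lower at an unadjusted p under 0.05, and the median was -0.00, so the list sat at the background share while 1371076_at was called. Alas1, the first enzyme of haem synthesis, read 300, 572 and 727 in controls and 728, 935 and 1122 after toluene, a difference of 0.87 (SE 0.25, adjusted p 0.287 in limma's fit). Its differences at 4 and 12 months, where it was called, were 1.87 and 1.88 (adjusted p 0.00908 and 0.00631 in limma's fit). The test of 24 against 4 months gave -1.004 (95% interval -1.74 to -0.26, adjusted p 0.992) and that of 24 against 12 months gave -1.01 (-1.75 to -0.27, adjusted p 0.371). Cyp3a23-3a1, a PXR target, gave 0.31, with one control, 4105, inside the dosed range of 4012 to 4311. Ephx1, Cyp3a2, Ugt2b1 and Ces2c gave -0.05, 0.16, 0.18 and -0.26. Por gave 1.04 at 4 months and 0.77 at 12 months against 0.01 at 24 months, and its differences between ages, -1.03 and -0.77, did not pass (adjusted p 0.992 and 0.626 in limma's fit). Akr7a3, an aldehyde reductase of both the CAR and the Nrf2 list, was lower at -0.88.

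Of 6 targets of the dioxin receptor AhR 1 was higher, Nfe2l2 (0.60), and Cyp1a2 gave 0.12. Of 25 targets and regulators of Nrf2, the oxidative stress sensor, 2 were higher and 6 lower at an unadjusted p under 0.05, and the median was -0.24. Without control 1, 3 were lower, and without toluene 3, 2 were. The lower ones included Gss of glutathione synthesis (-0.67) and Akr1b8 (-0.83). Hmox1, haem oxygenase, read 403, 1154 and 236 in controls and 177, 200 and 127 after toluene, with the highest value in control 2. Its difference of -1.54 had an SE of 0.70. Nqo1 and Gclc gave -0.28 and -0.42. Among conjugating enzymes, 24 glutathione transferases and acyltransferases held 5 higher and 1 lower. Gstm7 read 142, 383 and 210 against 458, 441 and 551 (difference 1.10, adjusted p 0.292 in limma's fit), and Mgst3 gave 0.49. None of 7 genes of glucuronidation and 2 of 16 sulfotransferases and methyltransferases were higher. The 28 P450s of other families held 5 higher and 3 lower, the lowest p being that of Cyp4a1, described with the fatty acid genes. Of 29 esterases, reductases and related enzymes 4 were higher and 4 lower, among them Akr1c3 with 35.2, 82.4 and 33.6 against 169, 141 and 260 (difference 2.00, adjusted p 0.264 in limma's fit) and Ephx2, soluble epoxide hydrolase, at -0.56. Of 19 transporters 2 were higher and 2 lower.

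**Figure D3:**
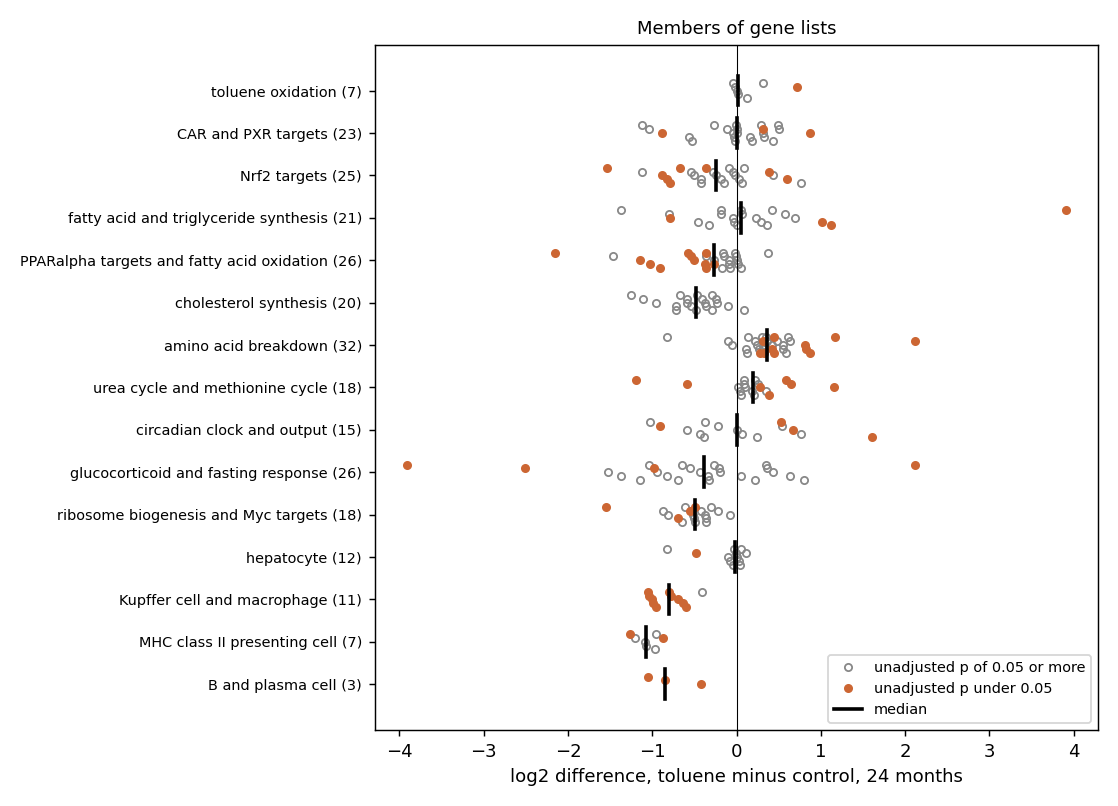
Log2 difference between toluene and control at 24 months for each tested member of 15 gene lists (number of members in brackets), with filled circles for an unadjusted p under 0.05, open circles otherwise and a black bar at the list's median. Macrophage markers, with a median of -0.80, and fatty acid oxidation, at -0.27, lie mostly left of zero, and amino acid breakdown, at 0.36, lies mostly right of it.

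Genes of fatty acid oxidation were mostly on the low side in dosed rats, with none called. Of 26 PPARalpha targets and oxidation enzymes none was higher and 11 were lower at an unadjusted p under 0.05, 22 had a negative difference and the median was -0.27. Cyp4a1, the fatty acid omega-hydroxylase that follows PPARalpha activity, read 1896, 1098 and 2422 in controls and 965, 908 and 876 after toluene, a difference of -0.90 (SE 0.27, adjusted p 0.315 in limma's fit). Vnn1, pantetheinase, read 454, 130 and 608 against 115, 99.0 and 35.6, a difference of -2.15 (SE 0.51, adjusted p 0.21). In both the control nearest to the dosed rats was rat 2. Pex11a, picked for small p-values on these same arrays, read 215, 214 and 236 against 116, 107 and 104 on its brighter probe set. The beta-oxidation enzymes Hadha, Decr1, Cpt2 and Hadhb gave -0.37, -0.37, -0.54 and -0.51, and the thioesterase Acot2 gave -1.15. Other targets stood near zero, with 0.00 for Fabp1, 0.06 for Angptl4, -0.14 for Pdk4 and -0.17 for Cpt1a. The number lower ranged from 8 without control 3 to 14 without control 2 when each array was left out in turn. Over all genes 8.62% were lower without control 3 and 6.54% without control 2.

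Fatty acid synthesis showed no such common direction beside Scd. Of its 21 genes 3 were higher and 1 lower, with a median of 0.05. Pklr, liver pyruvate kinase, read 127, 205 and 227 in controls and 516, 261 and 456 after toluene (difference 1.13, SE 0.31, adjusted p 0.282 in limma's fit). Thrsp, a lipogenic regulator, read 538, 2165 and 1546 against 2838, 1872 and 2804 (1.02, adjusted p 0.408). Fasn, Acaca, Acly and Srebf1, the core of the lipogenic programme, gave 0.57, 0.36, 0.42 and 0.29, with unadjusted p-values of 0.13 to 0.53. Scd2, the related desaturase, gave -0.46 and Elovl6 -0.19. None of 20 cholesterol synthesis genes was at an unadjusted p under 0.05, although 19 had a negative difference and the median was -0.48. Control 3 carried that median: Idi1 read 1724 there against 585 and 445 in the other controls, and without control 3 the median was -0.03. Without control 2 it was -0.80, and 4 were lower, against 6.54% of all genes.

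Genes of amino acid breakdown were mostly on the high side, with none called. Of 32 genes 11 were higher and none was lower at an unadjusted p under 0.05, 29 had a positive difference and the median was 0.36. Sds, serine dehydratase, had the largest difference of the list, 2.12, with an SE of 0.94 (adjusted p 0.457 in limma's fit). Of the histidine pathway, Hal read 123, 383 and 358 in controls and 531, 548 and 664 after toluene (difference 1.17, SE 0.35, adjusted p 0.308 in limma's fit), Uroc1 read 815, 1586 and 1382 against 1867, 2050 and 2549 (0.82, adjusted p 0.282), and Ftcd gave 0.44. Gls2, liver glutaminase, read 456, 910 and 431 against 965, 936 and 1219 (0.87, adjusted p 0.287). Control 2 stood closest to the dosed rats in Hal, Uroc1 and Gls2, and control 1 was the lowest or second lowest. Oat (0.82) and the branched-chain enzymes Mccc2, Ivd and Bckdhb (0.33, 0.44 and 0.31) were also among the 11. The number higher was 3 without control 1 and 23 without control 2, so it rested on which controls were used. Over all genes the share higher was 3.21% without control 1 and 5.02% without control 2. Of 18 urea and methionine cycle genes 5 were higher and 2 lower, with a median of 0.20. Bhmt, betaine-homocysteine methyltransferase, read 1264, 3708 and 2249 against 4326, 4780 and 5709 (1.16), Gnmt gave 0.65 and Otc 0.59. The lower ones were Glul and Mat2a (-0.59).

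**Figure D4:**
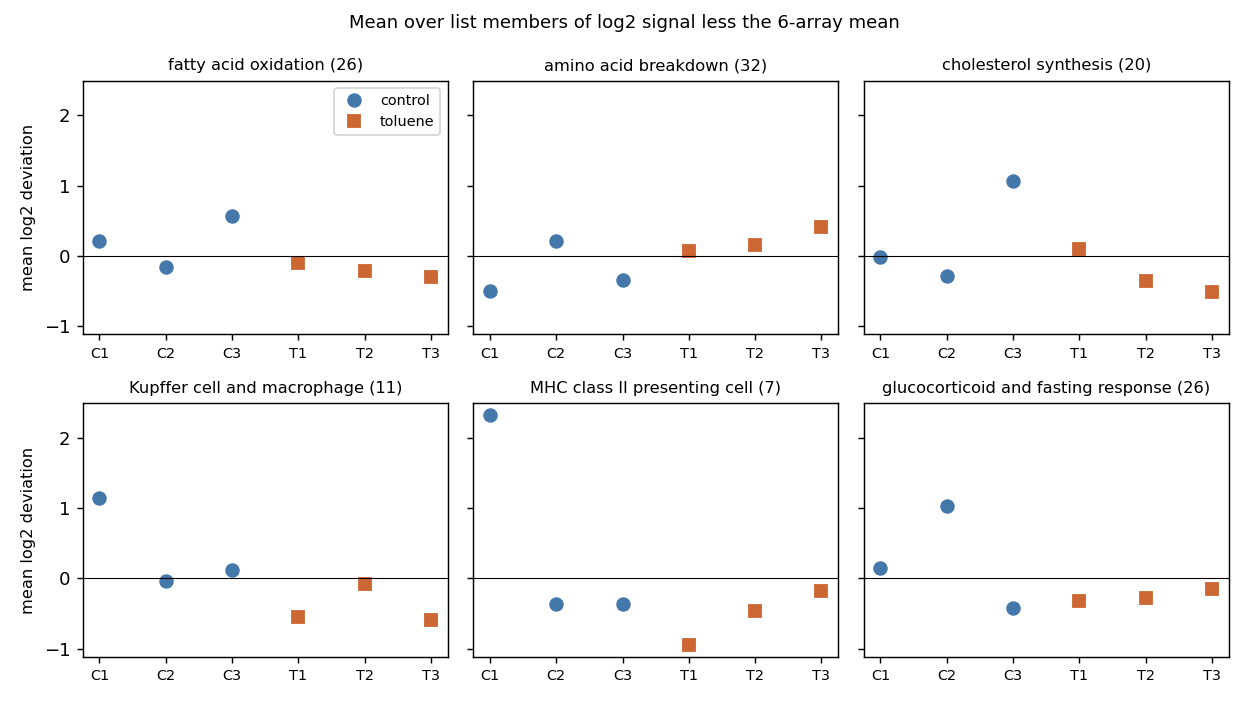
Mean over the members of 6 gene lists of log2 signal less the member's mean over the 6 arrays of 24 months, one point per array, with circles for controls (C1 to C3) and squares for toluene (T1 to T3). Control 1 is at 1.14 for macrophage and 2.33 for MHC class II markers, control 2 at 1.03 for the glucocorticoid list and control 3 at 1.07 for cholesterol synthesis, whereas no dosed array exceeds 0.42 in these lists.

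Transcripts of immune cells had mostly negative differences in dosed livers, those of resident macrophages throughout, and none was called. Of 11 Kupffer cell and macrophage markers none was higher and 10 were lower at an unadjusted p under 0.05, all 11 differences were negative and the median was -0.80. In whole-liver RNA fewer cells of a type and less RNA per cell cannot be told apart. Cd163, a scavenger receptor, read 458, 211 and 211 in controls and 119, 178 and 119 after toluene (difference -1.004, SE 0.25, adjusted p 0.246 in limma's fit). C1qb of the complement C1q complex read 910, 522 and 510 against 258, 436 and 247 (-1.04, adjusted p 0.281). Cd5l read 1315, 475 and 740 against 374, 456 and 304 (-1.05, adjusted p 0.282). In these genes control 1 was the highest array and dosed rat 2 lay close under the lower controls. The summed signal of the 11 markers was 9961, 4334 and 4960 in controls and 3043, 4396 and 3128 after toluene. Without control 1, 5 of the 11 were lower, against 3.003% of all genes, and without any other single array 7 to 11 were.

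For MHC class II genes control 1 decided the comparison. All 7 had negative differences with a median of -1.08, and 2 were lower at an unadjusted p under 0.05, but their summed signal was 10837 in control 1 against 1566 and 1482 in the other controls and 1068, 1440 and 1926 after toluene. Without control 1 the median was -0.07. All 3 B and plasma cell genes tested were lower at an unadjusted p under 0.05: Jchain, the joining chain of secreted immunoglobulin, read 258, 366 and 292 against 189, 189 and 134 (-0.84, adjusted p 0.264 in limma's fit). Of 10 sinusoidal endothelial markers 4 were lower, with Fcgr2b at -0.64 and Lyve1 at -0.39, and a median of -0.24, and 1 was lower without control 1 or toluene 1 and 2 without control 2 or control 3. Of 3 neutrophil genes 1 was lower, Fcgr3a (-0.81), which macrophages also express, and of 2 T and NK cell genes 1 was lower, Lck (-0.42). None of 9 stellate cell and none of 2 cholangiocyte genes was at an unadjusted p under 0.05, and Col1a1, the defining collagen of fibroblasts, was at the floor on all 6 arrays. Of 4 erythroid genes 2 were higher, and their summed signal was 2092, 5056 and 3366 in controls and 5589, 6357 and 4982 after toluene.

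Several stress genes spread widely among the controls. Of 26 glucocorticoid and fasting response genes 1 was higher and 3 lower, with a median of -0.38. Without control 2 the median was -0.11, with 3 higher and 2 lower, and without control 3 it was -0.65, with 0 higher and 11 lower. Over all genes 5.02% were higher and 6.54% lower without control 2, and 7.53% higher and 8.62% lower without control 3. Fkbp5, a glucocorticoid receptor target, read 315, 775 and 99.99 in controls and 119, 200 and 94.7 after toluene. Tat, an enzyme of tyrosine breakdown that glucocorticoids induce, read 1443, 3423 and 308 against 523, 490 and 1061. Igfbp1, a binding protein raised in fasting, read 1082, 4845 and 852 against 277, 140 and 624 (-2.51, SE 1.00, adjusted p 0.409 in limma's fit). Control 2 was the highest array in each of these. Gadd45b, a stress-inducible gene and CAR target, read 54.1, 412 and 3.36 against 44.1, 35.8 and 52.0, a difference of -1.04 with an SE of 0.70. At 4 and 12 months its differences were 1.40 and 2.04, and the differences between ages, -2.44 and -3.08, did not pass (adjusted p 0.992 and 0.358). Lcn2, an acute-phase protein, read 3627, 1634 and 143 against 58.3, 82.3 and 52.4, a difference of -3.91 with an SE of 1.40 (adjusted p 0.366). Of 26 acute-phase genes it alone was lower, and none was higher.

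All 18 genes of ribosome biogenesis and Myc targets had negative differences, with a median of -0.50, and 4 were lower. The mean over the list, each gene less its mean over the 6 arrays, was 0.27, 0.64 and -0.09 in controls and -0.28, -0.23 and -0.32 after toluene, with control 2 the highest. Without control 2 the median was -0.36 and 1 gene was lower, 2 were lower without control 1, toluene 1 or toluene 3, and 8 without control 3. Over all genes 6.54% were lower without control 2 and 8.62% without control 3. Myc read 60.7, 327 and 123 against 42.7, 62.1 and 36.7. Of 16 immediate early genes Myc was again the only one lower, and none was higher. Their median was -0.44 with all arrays and 0.00 without control 2, when none was lower, and 3 were lower without control 3. Of 20 ATF4 target genes 1 was higher and 5 lower, led by Psat1, and Trib3 gave -0.87. Of 18 p53 targets 1 was higher and 2 lower, and Cdkn1a gave -0.95 (adjusted p 0.571 in limma's fit). Of 17 growth hormone and IGF genes 2 were higher and 4 lower, against 0 to 2 higher (0 without control 1) and 0 to 4 lower (0 without toluene 1 and 1 without control 3) when each array was left out in turn: Igf1 read 2627, 3346 and 3195 against 4224, 3955 and 4326 (0.45), and Igfbp2 read 231, 231 and 596 against 27.1, 138 and 53.4 (-2.36, adjusted p 0.388). Igf1 and Igfbp2 did not overlap between the groups, but were picked on these same arrays. Of 15 clock genes 3 were higher and 1 lower. Nr1d1, the repressor Rev-erb alpha, read 31.3, 25.1 and 34.3 against 142, 77.2 and 91.0 (1.61, SE 0.47, at least 3.05-fold, adjusted p 0.3), Cry2 gave 0.67 and Tef 0.53, while Cry1 gave -0.91. Of 24 interferon-responsive genes 5 were higher and 2 lower, with Usp18 at 0.61 and Isg15 at 0.38. All 8 metallothionein and zinc genes had positive differences, 1 of them, Slc39a8 (0.42), at an unadjusted p under 0.05, while Mt1 and Mt2A gave 0.35 and 0.21. Of 23 endoplasmic reticulum chaperones 1 was lower, of 17 heat shock genes 1 was lower, Hspb1 (-1.74), and of 18 bile acid synthesis genes 2 were higher, led by Acox2 (0.67). Of 20 gluconeogenic and glycolytic genes 4 were higher and none was lower.

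Tsku, which encodes the secreted liver protein tsukushi, was the only gene besides Scd whose response to dosing differed between ages in limma's interaction test. At 24 months it read 193, 209 and 68.0 in controls and 96.9, 173 and 75.3 after toluene, a difference of -0.37 (SE 0.45, adjusted p 0.828). The groups overlapped. At 4 months it read 21.7, 27.4 and 26.1 in controls and 348, 263 and 387 after toluene, and at 12 months 16.9, 33.4 and 27.1 against 368, 300 and 1076. At both younger ages every dosed rat exceeded every control, and the controls lay at or near the floor. The difference between 24 and 12 months was -4.29 (SE 0.64, adjusted p 0.0455) and that between 24 and 4 months was -3.73 (SE 0.64, adjusted p 0.144). At 24 months the controls, at 156 ± 77.0 (SD, n = 3), stood above the floor and the dosed rats, at 115 ± 51.2 (SD, n = 3), stood below those of the younger ages. The call for 24 against 12 months was lost without control 1 or control 2 of 24 months (adjusted p 0.153 and 0.0866), without dosed rat 1 or dosed rat 3 of 24 months (0.212 and 0.111), without any one 12-month control (0.0985 to 0.146) and without 12-month dosed rat 2 (0.0563). The same test for Scd against 12 months was lost without control 1 or dosed rat 1 of 24 months (adjusted p 0.0934 and 0.0931), without any one 12-month control (0.0813 to 0.119) and without 12-month dosed rat 2 (0.0719), while its difference from 4 months passed without each array in turn (adjusted p 0.00138 to 0.0433). With the floor at 8, or 4 times as high as the main one, the called age differences of both Scd and Tsku were lost.

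**Figure D5:**
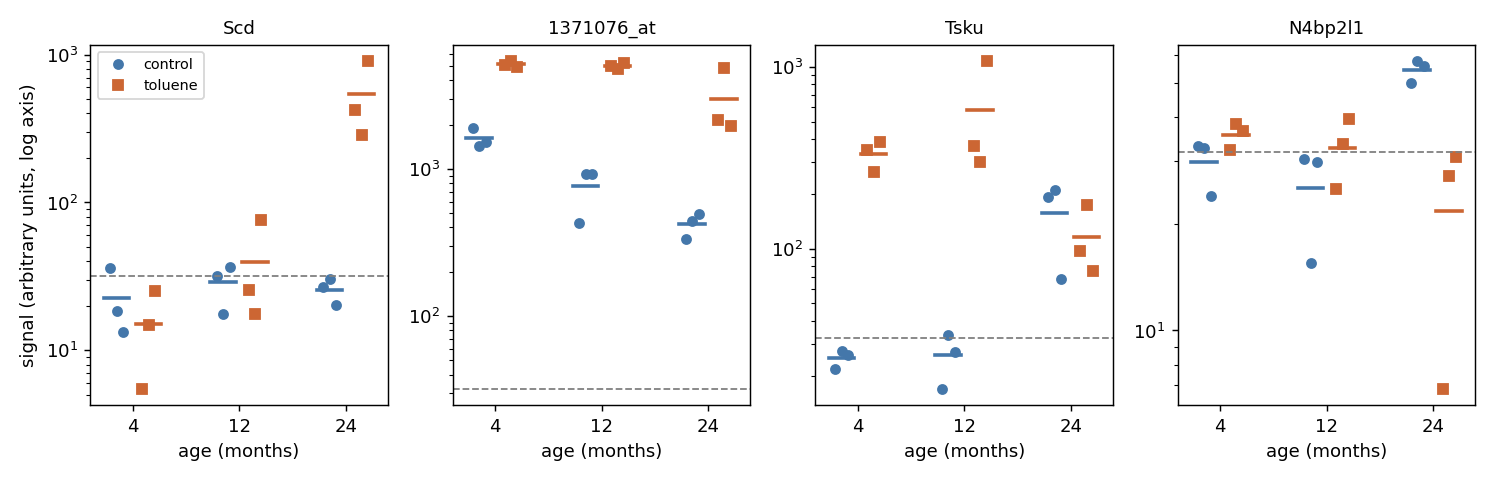
Signal of Scd, 1371076_at, Tsku and N4bp2l1 on all 18 Brown Norway arrays (log axis, arbitrary units) by age, with circles for controls, squares for toluene, lines for means and a dashed line for the floor. Scd is above 280 only in the dosed rats of 24 months, 1371076_at is higher after toluene at every age, and the Tsku groups overlap at 24 months alone.

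The other genes with the smallest p-values in the differences between ages were N4bp2l1 (-0.89 against both younger ages, adjusted p 0.108 for 24 minus 4 months and 0.0703 for 24 minus 12 months), Phf19 (0.76 and 0.88, adjusted p 0.296 and 0.09), Me1 (-1.71 for 24 minus 4 months, adjusted p 0.296) and Hes1 (-1.17 for 24 minus 12 months, adjusted p 0.124). The value for Me1 is from its dimmer probe set, on which 2 dosed rats of 24 months lay under the floor. The brighter Me1 probe set gave -0.78 for the same difference (adjusted p 0.992 in limma's interaction test). Hes1, a transcriptional repressor downstream of Notch, read 205, 248 and 224 in controls and 150, 168 and 180 after toluene at 24 months. Its difference was -0.44 at this age against 0.43 at 4 months and 0.72 at 12 months.

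The lists that leaned one way at 24 months held fewer such members at the younger ages, whose arrays are other rats. Over all 8592 genes, 1.57% were higher and 1.59% lower at an unadjusted p under 0.05 at 4 months, and 2.26% higher and 2.36% lower at 12 months. Of the 26 PPARalpha targets and oxidation enzymes 1 was lower at 4 months and 0 at 12 months, with medians of -0.01 and -0.15. Of the 32 amino acid breakdown genes 0 were higher at either age and 2 were lower at 12 months, with medians of 0.02 and -0.18. Of the 11 Kupffer cell and macrophage markers 0 were lower at either age, with medians of 0.17 and -0.25. The 23 CAR and PXR targets held 2 higher at 4 months and 5 at 12 months with 0 lower, and medians of 0.10 and 0.17 against -0.00 at 24 months. The share of all genes was also larger at 24 months, and no difference between ages was tested for a list as a whole.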

How the data were processed

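RNA from livers of male Brown Norway rats was hybridised to Affymetrix Rat 230 2.0 arrays. The deposited table holds the authors' linear probe-set intensity values (signals). The submitters' processing notes name MAS5 and RMA without version, role or order, so which of them made the values is not given in the sources used here. Their RNA came from TriReagent and RNeasy columns, per the labels' protocols.

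Of 24946 probe sets, 17584 carry 1 gene symbol, 393 several and 6916 none, and 53 are array controls, which were left out with probe sets lacking a value on any Brown Norway array, leaving 23271. Symbols were updated through Entrez identifiers to RefSeq, assembly GRCr8, where 54 were not matched. Of the tested probe sets 11216 have 1 symbol, 312 several and 2444 none. Signals were floored at 32 and log2 transformed. limma 3.58.1 in R 4.3.3 (lmFit, eBayes) fitted 6 group means to 18 arrays without covariates, the script was tested on simulated data, and p-values were adjusted by the Benjamini-Hochberg method over all probe sets tested. All tests were two-sided. With 3 rats a group the number of arrays limits the precision.

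Genes were named by rule: up to 15 non-overlapping called genes in each direction, the 20 single-gene probe sets of smallest p because fewer than 20 passed, in every gene list the 4 members with the lowest p-values at most, a fixed set of xenobiotic and stress genes, and the 5 smallest p-values in each difference between ages. Other list members are given as examples chosen after their values were seen. The members, gene lists and rules were chosen with earlier results of these data known. Of the list entries 845 were matched by symbol and 6 by synonym; 164 were not found under their names and are not analysed here, nor are Cyp2b1, Cyp2b2, Cyp1a1, Adh1 and Abcc3 of the fixed set as single genes. Alternatives changed the floor, filter, scaling, variance model, summary per gene and the arrays used.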

Additional observations from a re-analysis of the deposited data

Results flagged for a closer look

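Scd responded differently to dosing at 24 months than at the younger ages by the test of the difference itself in the main fit. The log2 response at 24 months exceeded that at 4 months by 3.96 (adjusted p 0.00791 in limma's interaction test) and that at 12 months by 3.56 (adjusted p 0.03), with 3 of 3 dosed rats of 24 months above all 3 of their controls. Tsku differed in the other direction between 24 and 12 months, by -4.29 (adjusted p 0.0455 in limma's interaction test), with 3 of 3 dosed rats above their controls at 12 months and overlapping groups at 24 months. None of these differences passed with the floor at 8, with a floor 4 times as high as the main one, or against a 2-fold minimum. Those from 12 months were also lost with the compared groups alone, and that of Tsku was lost after median scaling. Both genes were picked by these tests, so the separation of their arrays adds no separate support. Groups of 3 are too small for the test of single outlying arrays.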

How the results depend on the processing

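Of the 6 probe sets called for toluene at 24 months, all 6 were also called with no filter on low values (9 calls), after quantile or median scaling again and with a variance trend (6 calls each). The count was 2 with a floor of 8, 3 with a floor 4 times as high as the main one (the raised floor), 1 when a 2-fold minimum was tested (Scd), 14 with array quality weights, 14 with the 12-month toluene array 3 left out, an alternative chosen after seeing the data, and 0 when limma was fitted to the 6 arrays alone (1524 at an unadjusted p under 0.05). Leaving out single arrays of 24 months gave 2 to 49 calls. For 24 minus 4 months the count of 1 became 0 with a floor of 8 (1044 unadjusted), the raised floor (330 unadjusted) or a 2-fold minimum, 2 with no filter on low values, 2 with a variance trend and 3 with array quality weights, and was 1 to 3 without single arrays. For 24 minus 12 months the count of 2 became 0 with a floor of 8 (2032 unadjusted), the raised floor (789 unadjusted), a 2-fold minimum or the compared groups alone (1317 unadjusted), 1 after median scaling, 4 with a variance trend and 4 when probe sets of one gene were averaged, and was 0 to 5 without single arrays. The call of 24 minus 12 months lost after median scaling was that of Tsku. With no filter on low values 3 probe sets were called for 24 minus 12 months, of which 1 was among the 2. The 2-fold minimum, tested with limma's treat, left 4 and 23 probe sets at an unadjusted p under 0.05 in the differences from 4 and 12 months. Why these counts moved was not tested. No called probe set reversed its sign. Signals near the floor limit what can be read: of the called genes only Cers6 and 1371076_at lay above it on all 6 arrays. No paired analysis was possible because the labels give the rats no shared replicate numbers.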
